A study of Homo sapiens with 8 samples.

Results

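The contractile actin cytoskeleton genes described here are 10 genes taken by symbol from the 21059 genes of a deposited expression table: ACTA2, ACTG2, TAGLN, CNN1, CNN2, MYL9, TPM1, TPM2, TPM4 and CALD1. Their RNA was sequenced in MDA-MB-157, an established estrogen receptor-negative human breast cancer cell line, grown with 5 mM glucose (low glucose) or 25 mM glucose (high glucose) for 48 h, with 4 replicates in each group. Per the study's methods, cells of both groups were first kept in low-glucose medium and were then cultured without serum, so the groups share the lack of serum and differ in glucose. The comparison asks how the transcriptome responds to a glucose level chosen to mimic hyperglycemia. None of the 8 libraries is an osmotic control, so glucose and osmolarity cannot be told apart, and the results come from 1 cell line.

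Contractile cells pull by sliding actin filaments along myosin. Tropomyosins lie along the actin filament and set which proteins can reach it, caldesmon and calponin bind the filament and hold back the myosin motor, transgelin bundles actin, and the regulatory light chain turns the motor on once myosin light chain kinase has phosphorylated it. Many of these genes are known targets of serum response factor (SRF), which binds a short DNA element called the CArG box together with a cofactor of the myocardin family (MYOCD, MRTFA, MRTFB), and together they are widely used to mark smooth muscle cells, myofibroblasts and other cells with stress fibers.

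Of the 10 genes, 8 were lower at high glucose, none was higher, and 2 were too low to compare. MYL9 fell the most, to 49.5% of its low-glucose level, followed by CALD1 at 57.9%, TAGLN at 73.2%, ACTA2 at 74.1%, TPM2 at 78.4%, CNN2 at 79.5%, TPM4 at 85.3% and TPM1 at 88.7%. In all 8, every high-glucose library lay below every low-glucose library. The remaining genes, ACTG2 and CNN1, were at the level of a few reads. Over the whole table, 24.8% of genes were lower and 22.0% were higher at high glucose by the same test (limma on log2(CPM + 1), Benjamini-Hochberg adjusted p under 0.05 over 21059 genes). Among the 11297 genes with a mean of at least 5 CPM, 33.3% were lower and 33.6% were higher, and 32.5% had all high-glucose libraries below all low-glucose libraries. The median log2 change over the 10 genes was -0.33, beside -0.0092 over all genes tested. Among genes of at least 5 CPM, these medians were -0.38 and -0.0071. The 10 genes were chosen with earlier results of these data known, so the figures only describe them. CPM, the deposited unit, is a gene's read count relative to the size of its library, here scaled by trimmed mean of M values (TMM) factors.

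In these bulk libraries, fewer cells expressing a gene and less of its RNA per cell cannot be told apart. Values are per gene, so the muscle and nonmuscle isoforms that TPM1, TPM2 and CALD1 make by splicing were not separated.

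Because the CArG box is the element through which SRF binds, the promoter windows of these genes are shown where they hold one. The windows are the RefSeq promoters of GRCh38.p14, 300 bases from 250 before to 50 after an annotated start. Windows were found for 8 of the 10 genes, 15 windows in all, and TAGLN and MYL9 had none to search. The box is 10 bases long, a pair of C, 6 A or T, and a pair of G, so 1 search covers both strands. It was present in 3 of the 15 windows, those of ACTG2, CNN2 and 1 of the 3 windows of TPM4, and in 1.29% of the 35116 windows of all genes. The 10 genes were picked as SRF-type smooth muscle genes, so these shares are given as a description. Outside the 10 genes, only SRF, ACTG1, ACTB, TPM3, MRTFA, MRTFB and CNN3 were looked at singly. The box was found for SRF itself and for ACTG1. It was absent from the windows of TPM3, MRTFA, MRTFB and CNN3, and ACTB had no window to search. The stretches below run 5′ to 3′ on the gene's strand, in lower case with the boxes in capitals: ACTG2 at chr2:73892873-73892969 (plus strand), CNN2 at chr19:1026494-1026553 (plus), TPM4 at chr19:16067340-16067399 (plus), SRF at chr6:43171214-43171268 (plus) and ACTG1 at chr17:81512859-81512918 (minus).
ACTG2: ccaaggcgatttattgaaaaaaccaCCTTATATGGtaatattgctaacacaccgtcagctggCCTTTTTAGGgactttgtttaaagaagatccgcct
CNN2: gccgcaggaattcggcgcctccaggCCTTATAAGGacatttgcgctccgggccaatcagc
TPM4: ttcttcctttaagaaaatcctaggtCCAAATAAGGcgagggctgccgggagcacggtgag
SRF: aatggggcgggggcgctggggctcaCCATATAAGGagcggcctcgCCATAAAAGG
ACTG1: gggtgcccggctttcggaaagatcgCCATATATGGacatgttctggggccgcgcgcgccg
The boxes of ACTG2 begin 110 and 73 bases before the annotated start, that of CNN2 89 bases, that of TPM4 173 bases, those of SRF 30 and 10 bases, and that of ACTG1 94 bases before it. No box of these letters was found in the windows of ACTA2, CNN1, TPM1, TPM2 or CALD1. A match describes the letters of the window and is not a measured binding site. The genes shown here with a box did not move alike at high glucose. CNN2, TPM4 and ACTG1 were lower, SRF was higher, and ACTG2 was near the detection limit.

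The libraries held an estimated 9721649 to 12482542 reads in the table, and 3 reads, the smallest count taken as measurable, corresponded to 0.212 to 0.267 CPM. These estimates cover counting error only. Replicate 1 of high glucose stood apart from the other libraries in its relation to transcript length. Each library's deviation was taken from the mean of the other libraries of its group. Its Spearman correlation with transcript length across 11223 genes was -0.65 in replicate 1 of high glucose. It was 0.25 to 0.47 in the other high-glucose libraries and -0.13 to 0.06 in the low-glucose libraries. Replicate 1 enters the means behind the 0.25 to 0.47, so these values are not independent of it. Each change below is therefore given beside its value with the length trend of every library removed where that ended a call. Without this library, all 8 genes were still lower.

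**Figure D1:**
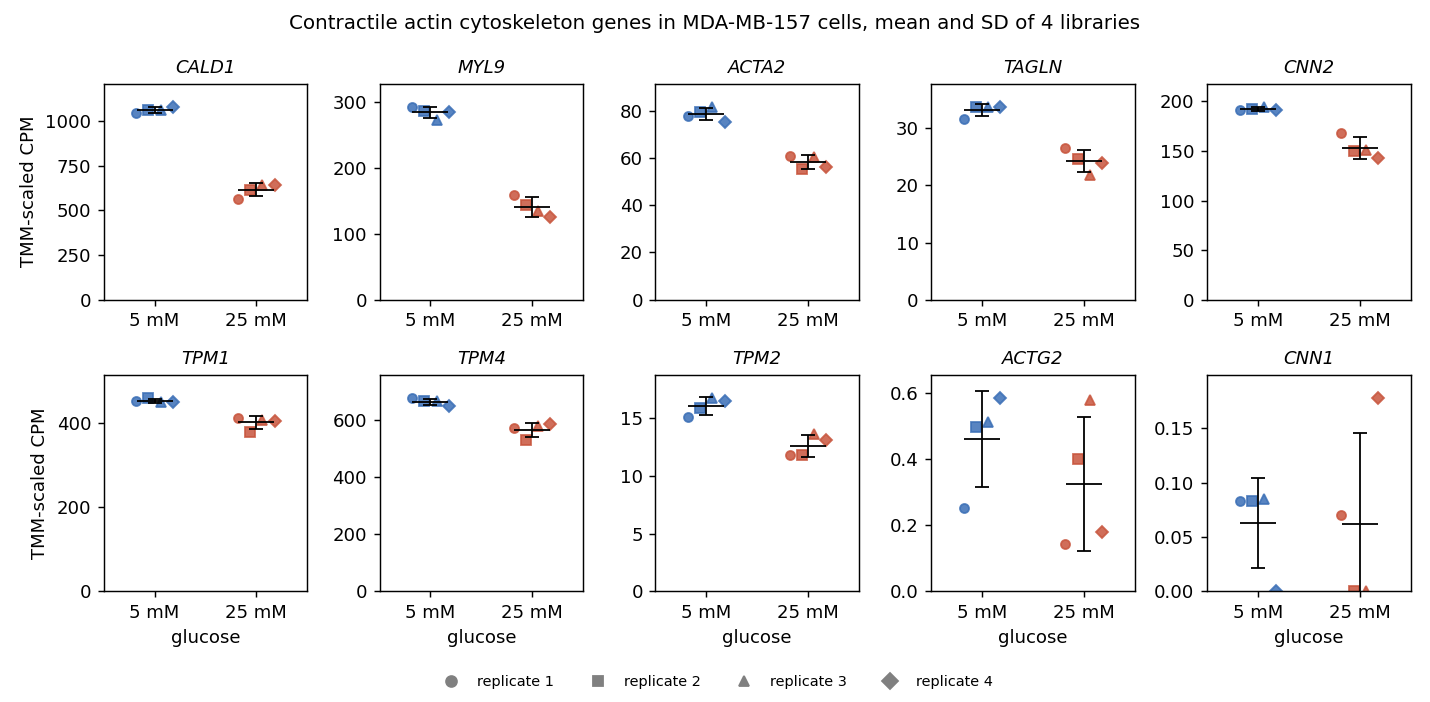
TMM-scaled CPM (y axis, linear, from 0) of each of the 10 contractile genes in the 4 libraries at 5 mM and the 4 at 25 mM glucose. Points are libraries, with the marker shape giving the replicate number, and bars are the mean and SD; the groups do not overlap for the first 8 genes, CALD1 to TPM2, while ACTG2 and CNN1 sit at or near the value of 3 reads.

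The filament regulators on the myosin side moved the furthest. MYL9 (ENSG00000101335.10, chr20:36541519-36551447) encodes the regulatory light chain of smooth muscle and nonmuscle myosin, the subunit that myosin light chain kinase phosphorylates. It measured 293, 287, 274 and 286 CPM in replicates 1 to 4 of low glucose and 159.5, 144, 135 and 125 CPM in those of high glucose. The lowest low-glucose library was 114 CPM above the highest high-glucose library, a gap larger than the range within either group. The mean went from 285 ± 8.24 to 141 ± 14.6 CPM (SD, n = 4), a log2 change of -1.02 ± 0.07 (SE; adjusted p = 3.42e-05). Ranked from the most negative change, MYL9 was 384 of the 11297 genes of at least 5 CPM.

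CALD1 (ENSG00000122786.20, chr7:134711499-134970729) encodes caldesmon, which binds actin, tropomyosin and myosin. It measured 1043, 1061, 1058 and 1079 CPM at low glucose and 563, 613, 639 and 642 CPM at high glucose. The lowest value at high glucose was that of replicate 1, and the groups were far apart. The mean fell from 1060.1 ± 14.5 to 614 ± 36.7 CPM (log2 change -0.79 ± 0.05, adjusted p = 1.54e-05). CALD1 ranked 839 of 11297. It shares no 31-base word with the transcripts of another gene, and its read estimate was a whole number in all 8 libraries, as were those of MYL9 and TPM2.

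The actin-binding proteins of the calponin family and smooth muscle actin moved by smaller amounts. ACTA2 (ENSG00000107796.13, chr10:88935074-88991337), the smooth muscle alpha-actin used as the classic myofibroblast marker, measured 77.7, 79.5, 81.8 and 75.5 CPM at low glucose and 60.9, 55.3, 60.7 and 56.2 CPM at high glucose. The closest libraries of the groups, 75.5 and 60.9 CPM, were still 14.6 CPM apart. The mean went from 78.6 ± 2.66 to 58.3 ± 2.96 CPM (log2 change -0.43 ± 0.04, adjusted p = 1.58e-04). Exons of FAS, which encodes a death receptor, overlap it on the opposite strand. FAS was at 14.6 and 13.1 CPM in the groups and did not pass the test (log2 change -0.14, adjusted p = 0.216).

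TAGLN (ENSG00000149591.16, chr11:117199294-117207465) encodes transgelin, also called SM22-alpha. It measured 31.6, 33.6, 33.7 and 33.8 CPM at low glucose and 26.5, 24.6, 21.9 and 24.0 CPM at high glucose. Replicate 1 was the lowest low-glucose library and the highest high-glucose library, and the groups did not overlap. The mean fell from 33.2 ± 1.06 to 24.3 ± 1.92 CPM (log2 change -0.44 ± 0.06, adjusted p = 6.64e-04). By its reference transcript, which may not be the expressed one, TAGLN has the largest share of shared sequence of the 10 genes. Of the 31-base words of its reference transcript, 65.7% also occur in a same-strand transcript, ENSG00000280143, which was at 2.62 and 2.86 CPM and did not pass the test. Its exons also overlap those of PCSK7, a proprotein convertase on the opposite strand, which was lower at high glucose too (38.6 and 33.1 CPM, log2 change -0.22, adjusted p = 5.74e-04).

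CNN2 (ENSG00000064666.15, chr19:1026608-1039065) encodes calponin 2, the calponin of nonmuscle cells. It measured 191, 193, 195 and 191 CPM at low glucose and 168, 149.5, 151 and 143 CPM at high glucose. The low-glucose libraries were nearly equal, and the high-glucose libraries spread more widely below them. The mean fell from 192 ± 1.67 to 153 ± 10.9 CPM (log2 change -0.33 ± 0.05, adjusted p = 0.00108). Pseudogenes and other transcripts hold 12.2% of its words, and a transcript on the opposite strand within its exons, ENSG00000279753, was lower as well (11.1 and 8.19 CPM, log2 change -0.40, adjusted p = 0.00174). Whether the counting used strand is not stated for this table, so reads of such pairs cannot be told apart.

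CNN1 (ENSG00000130176.8, chr19:11538851-11550323), the calponin of differentiated smooth muscle, was at or under the value of 3 reads in all 8 libraries. It had 1 estimated read in each of 4 libraries, 2 reads in replicate 4 of high glucose and 0 in the rest. No fold is given for it. ACTG2 (ENSG00000163017.13, chr2:73893008-73919865), the smooth muscle gamma-actin, was at 0.250, 0.497, 0.510 and 0.583 CPM at low glucose and 0.141, 0.399, 0.577 and 0.178 CPM at high glucose, or 2 to 8 estimated reads. The groups overlapped, and 3 of the 8 libraries were at or below 3 reads (log2 change -0.15 with a 95% confidence interval from -0.44 to 0.14, adjusted p = 0.38).

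The tropomyosins TPM4 and TPM1 showed the smallest changes of the 8. TPM4 (ENSG00000167460.16, chr19:16067538-16103002), a mainly nonmuscle tropomyosin of stress fibers and platelets, measured 675, 664, 664 and 648 CPM at low glucose and 569.7, 530.3, 577 and 586 CPM at high glucose. Both groups were tight relative to the step between them. The mean fell from 663 ± 11.4 to 566 ± 24.4 CPM (log2 change -0.23 ± 0.04, adjusted p = 0.00165). Of its words, 41.8% occur in other transcripts and 35.1% in the processed pseudogene TPM4P2, so part of its signal depends on how reads were assigned.

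TPM1 (ENSG00000140416.21, chr15:63042747-63071915) makes both muscle and nonmuscle tropomyosins. It measured 452, 459, 450.4 and 449.7 CPM at low glucose and 413, 379.7, 409 and 405 CPM at high glucose. The groups did not overlap, and the highest high-glucose library was 36.5 CPM under the lowest low-glucose library. The mean fell from 453 ± 4.35 to 402 ± 15.1 CPM (log2 change -0.17 ± 0.03, adjusted p = 0.00264). Once the trend of each library with transcript length was taken out, the log2 change was -0.097 and the adjusted p was 0.057, so the call for TPM1 depends on that step. TPM2 (ENSG00000198467.14, chr9:35681993-35690056), the beta-tropomyosin of muscle, measured 15.1, 15.9, 16.7 and 16.5 CPM at low glucose and 11.8, 11.8, 13.6 and 13.2 CPM at high glucose. Its groups were separate as well (mean 16.1 ± 0.742 to 12.6 ± 0.936 CPM, log2 change -0.33 ± 0.06, adjusted p = 0.0033).

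Levels of different genes can be compared once CPM is divided by transcript length. Per kilobase of the canonical GENCODE 44 transcript, the order at low glucose was TPM1 (372 ± 3.57 CPM per kb), TPM4 (268 ± 4.61), CALD1 (212 ± 2.89), MYL9 (102 ± 2.96), CNN2 (89.5 ± 0.775), ACTA2 (58.3 ± 1.97), TPM2 (13.5 ± 0.623), TAGLN (8.76 ± 0.279), ACTG2 (0.306 ± 0.0965) and CNN1. At low glucose no neighbours in this order overlapped. At high glucose, CNN2 (71.2 ± 5.06 CPM per kb) stood above MYL9 (50.6 ± 5.25), and the other places were kept. MYL9 overlapped its next neighbour ACTA2 (43.2 ± 2.19) there, as did ACTG2 and CNN1. TPM2, TAGLN, ACTG2 and CNN1 took the last 4 places in both groups. The order rests on 1 transcript length per gene, and those of TAGLN (3786 bases) and MYL9 (2786 bases) are total lengths of transcripts that may not be the expressed ones.

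The close relatives of these genes moved in both directions. TPM3, the remaining tropomyosin gene, rose while TPM1, TPM2 and TPM4 fell: it measured 165, 162, 167 and 165 CPM at low glucose and 243, 235, 235 and 239.7 CPM at high glucose (log2 change 0.53 ± 0.02, adjusted p = 2e-06). The high-glucose values of TPM3 all lay well above the low-glucose values. TPM3 made up 3.45 ± 0.0607% of tropomyosin CPM per kb at low glucose and 5.60 ± 0.181% at high glucose, TPM4 went from 39.6 ± 0.418% to 37.9 ± 0.445%, and the shares of TPM1 (55.0 and 54.7%) and TPM2 overlapped between groups. Thus TPM1 stayed the main tropomyosin transcript by this measure. These shares rest on the lengths used, 1217 bases for TPM1, 2474 for TPM4 and 7064 for TPM3. In CPM not divided by length, TPM4 was above TPM1 in every library.

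Of the 4 paralogs outside the set, TPM3 was higher, CNN3 was lower, and TAGLN2 and TAGLN3 did not pass. CNN3, a calponin of nonmuscle cells, fell from 271 ± 2.22 to 229 ± 7.54 CPM (log2 change -0.24, adjusted p = 2.34e-04). TAGLN2, the transgelin of nonmuscle cells, was at 420.2 ± 8.63 and 432 ± 38.7 CPM (log2 change 0.04 with a 95% interval from -0.11 to 0.18, adjusted p = 0.691). Of the other actin genes, the cytoplasmic actins ACTB and ACTG1 were both lower. ACTG1 measured 3020.3, 3122, 3119.7 and 3192 CPM at low glucose and 2765, 2343, 2127 and 1902 CPM at high glucose (log2 change -0.46 ± 0.12, adjusted p = 0.0155). ACTB averaged 3352 ± 55.7 and 2782 ± 302 CPM (log2 change -0.27 ± 0.09, adjusted p = 0.0427). Replicate 1 was the highest high-glucose library for both. Over the alternatives the adjusted p reached 0.135 for ACTB and 0.0524 for ACTG1, so that both lost their call in at least 1 of them, and 30.1% and 22.0% of their words occur in other genes. The cardiac actin ACTC1 was at 0.448 and 0.483 CPM and did not pass, and ACTA1 was not in the deposited table.

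**Figure D2:**
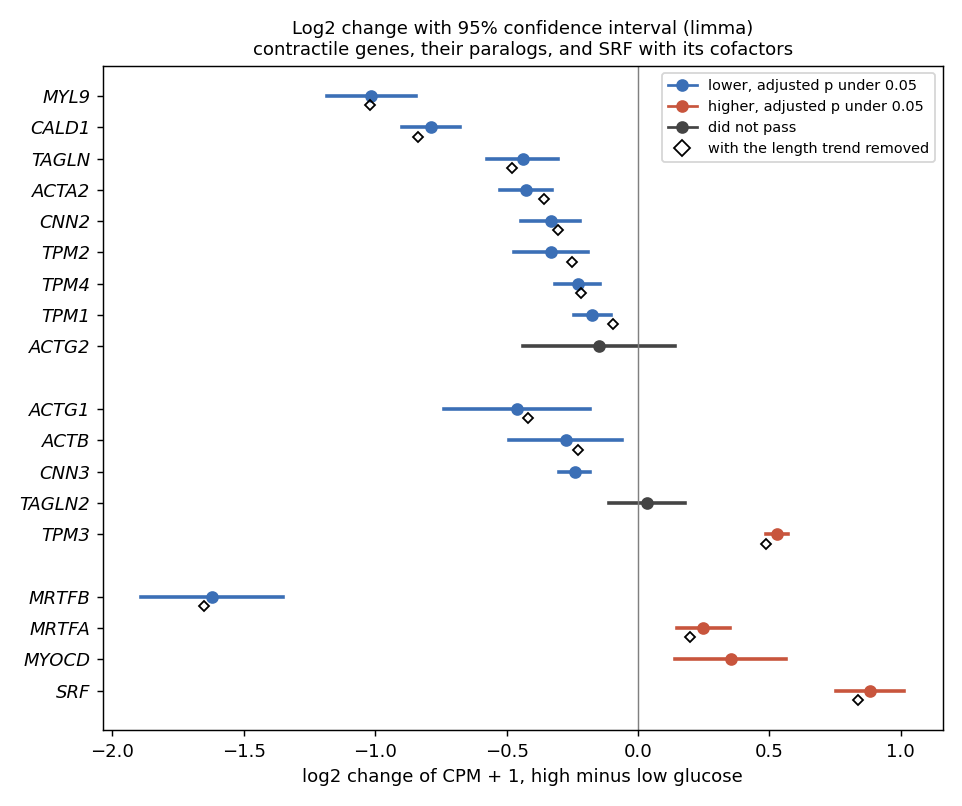
Log2 change of CPM + 1, high minus low glucose (x axis), with the 95% confidence interval from limma, for the contractile genes other than CNN1 (top), other actins and paralogs (middle) and SRF with its cofactors (bottom). Open diamonds, drawn where computed, are values with the length trend removed. The 8 called contractile genes lie between -1.02 and -0.17. MRTFB lies at -1.62, while TPM3, SRF, MRTFA and MYOCD lie to the right of 0.

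Ratios within a library do not depend on scaling between libraries. CALD1 over TPM4 was 1.54, 1.60, 1.59 and 1.67 at low glucose and 0.987, 1.16, 1.11 and 1.10 at high glucose, so the contractile genes did not fall in one proportion. MYL9 fell against its own class of light chains. MYL9 over MYL12B, which encodes a regulatory light chain of nonmuscle myosin, was 1.26, 1.25, 1.21 and 1.20 at low glucose and 0.457, 0.473, 0.465 and 0.425 at high glucose. MYL12B itself rose from 232 ± 5.68 to 309.9 ± 27.0 CPM (log2 change 0.41, adjusted p = 0.00109), and MYL12A, its close relative, rose from 268 to 343 CPM (log2 change 0.35, adjusted p = 0.0027). TPM1 over TPM4 (0.683 and 0.711 on average) and ACTA2 over ACTB (0.0235 and 0.0211) overlapped between the groups.

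**Figure D3:**
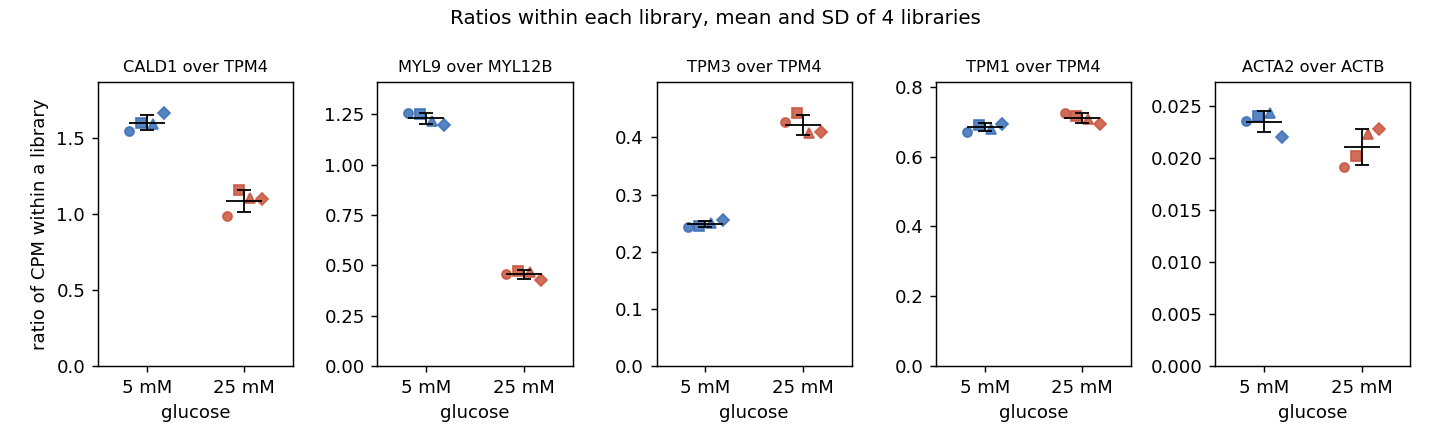
Ratio of 2 genes' CPM within each library (y axis, linear, from 0) at 5 mM and 25 mM glucose, with points for libraries, marker shapes for replicate numbers as in the plot of the contractile genes, and bars for the mean and SD of 4 libraries. CALD1 over TPM4 and MYL9 over MYL12B are lower in every high-glucose library, TPM3 over TPM4 is higher in every one, and the last pair of ratios overlap between groups.

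The wider actin and myosin machinery was examined as 9 lists with 98 distinct genes in the table, of which 30 were higher, 33 were lower and 35 did not pass, with a median log2 change of 0.0079. Calls in the 2 directions were thus about as frequent in these lists, as they were over all genes. Of the myosin heavy and light chains, 3 of 8 were higher, 3 were lower and 2 did not pass. MYH10, the heavy chain of nonmuscle myosin IIB, fell from 298 ± 8.74 to 201 ± 22.6 CPM (log2 change -0.57, adjusted p = 0.00108), and the essential light chain gene MYL6B fell from 74.1 to 49.9 CPM (log2 change -0.56, adjusted p = 8.82e-04).

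Of 11 genes that set myosin light chain phosphorylation, 3 were higher, 3 were lower and 5 did not pass. MYLK, the kinase that phosphorylates the regulatory light chain, fell from 23.1 ± 2.41 to 13.8 ± 1.44 CPM (log2 change -0.70, adjusted p = 7.64e-04). PPP1R14A, the inhibitor of myosin phosphatase called CPI-17, was at 2.28 and 1.02 CPM (log2 change -0.68, adjusted p = 0.0129), a call lost with the replicate number as a block (adjusted p = 0.0548). The catalytic subunit of that phosphatase, PPP1CB, rose from 290.2 to 418 CPM (log2 change 0.53, adjusted p = 2.04e-05), and PPP1R12C, of its targeting subunit family, rose from 65.3 to 107 CPM (log2 change 0.70, adjusted p = 4.16e-04).

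The transcripts of SRF and its cofactors moved in both directions. Their summed level was 520 to 533 CPM at low glucose and 478 to 505 CPM at high glucose. Of 8 such genes, 5 were higher, 1 was lower and 2 did not pass. SRF measured 39.0, 33.3, 36.4 and 38.5 CPM at low glucose and 70.1, 65.7, 67.1 and 71.7 CPM at high glucose (log2 change 0.88 ± 0.05, adjusted p = 1.88e-05). MRTFB, a myocardin-related cofactor that is held in the cytoplasm by free actin, measured 242, 243, 237 and 246 CPM at low glucose and 60.5, 82.2, 88.7 and 84.2 CPM at high glucose (log2 change -1.62 ± 0.11, adjusted p = 3.42e-05). SRF was higher and MRTFB was lower in every high-glucose library than in every low-glucose library. The part of either change in those of the contractile genes was not tested, and these are RNA levels, not activities. MRTFA rose from 61.9 ± 3.06 to 73.7 ± 2.74 CPM (log2 change 0.25, adjusted p = 0.00249). ELK1, which partners with SRF at growth-response genes, rose from 80.5 to 156 CPM (log2 change 0.94, adjusted p = 8.55e-07). MYOCD, the cofactor of differentiated smooth and cardiac muscle, was at 0.697 and 1.17 CPM (log2 change 0.35, adjusted p = 0.0147).

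Of 18 other smooth muscle differentiation genes in the table, 3 were higher, 7 were lower and 8 did not pass. SORBS3 (vinexin, 34.5 to 19.9 CPM, log2 change -0.77), SYNPO2 (myopodin, 8.43 to 4.37 CPM, -0.83) and PDLIM7 (enigma, 70.4 to 45.4 CPM, -0.62) fell, with adjusted p from 1.16e-04 to 0.00139. Of 20 actin crosslinking and stress fiber genes, 6 were higher, 8 were lower and 6 did not pass. The filament crosslinker FLNA fell from 1163 ± 55.7 to 795 ± 72.1 CPM (log2 change -0.55, adjusted p = 6.85e-04), and PDLIM1, which binds alpha-actinin, fell from 51.9 to 31.8 CPM (log2 change -0.69, adjusted p = 1.86e-04). The Ena/VASP proteins, which extend actin filaments, split: EVL fell from 179.8 to 76.0 CPM (log2 change -1.23, adjusted p = 6.33e-06) and ENAH rose from 278 to 452 CPM (log2 change 0.70, adjusted p = 5.27e-05).

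None of the 4 tropomodulins and leiomodins in the table was higher and 2 were lower. Of the 9 lists, only that of the other actins and that of the tropomodulins and leiomodins had calls in 1 direction alone.

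**Figure D4:**
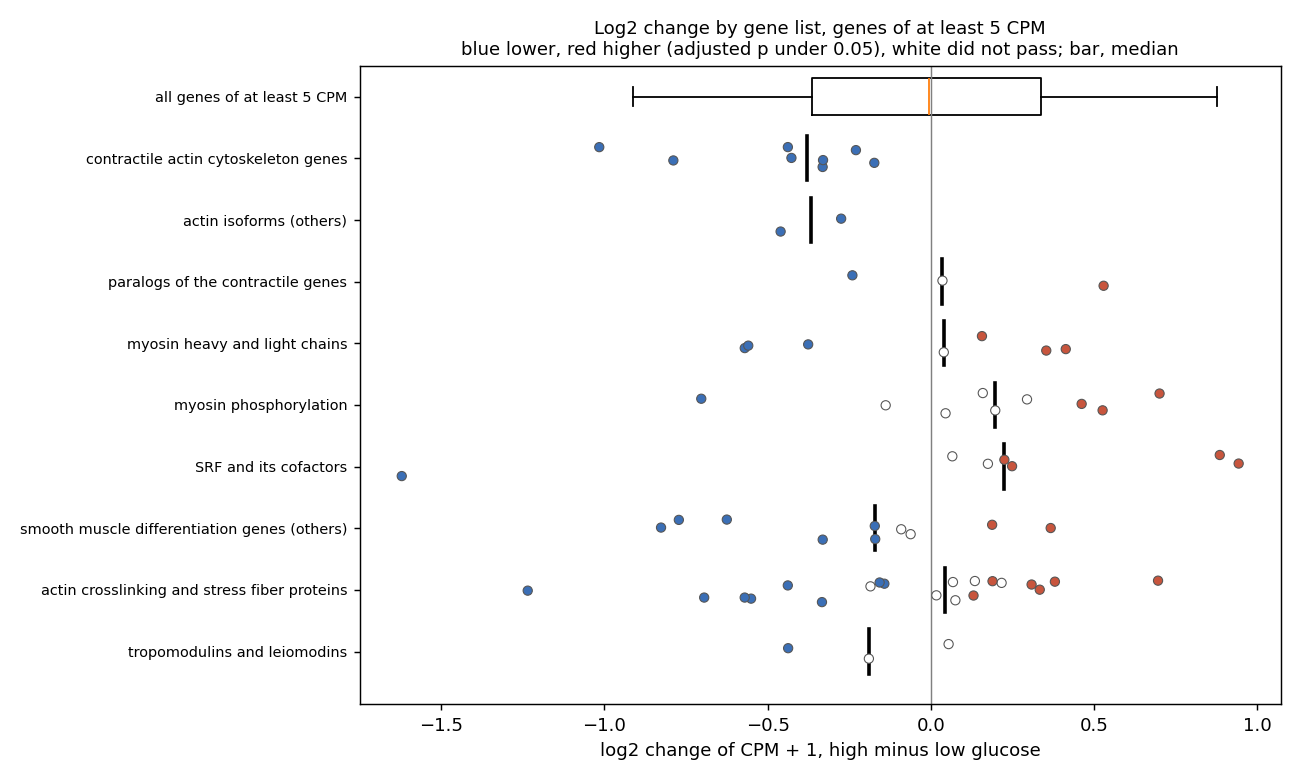
Log2 change of CPM + 1, high minus low glucose (x axis), for genes of at least 5 CPM in each list, with blue for lower, red for higher and white for genes that did not pass, and a black bar at the list median. The box on top covers the middle 50% of all 11297 such genes, with whiskers at the 5th and 95th percentiles; the contractile genes and the other actins lie left of 0, and the lists from myosin chains to actin crosslinking lie on both sides.

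Of the 7 smooth muscle markers, only 2, SMTN and SYNPO2, had a mean of at least 1 CPM. MYH11 was at 0.391 and 0.392 CPM, DES at 0.517 and 0.36 CPM, LMOD1 at 0.914 and 0.383 CPM and KCNMB1 at 0 in all 8 libraries. The summed level of the 7 smooth muscle markers was 38.6 to 42.3 CPM at low glucose and 27.5 to 31.8 CPM at high glucose. Most of it was SMTN and SYNPO2. Of the 7, 3 were lower and 1, MYOCD, was higher. The 8 mesenchymal markers summed to 30630 to 31357 CPM at low glucose and 18449 to 19001 CPM at high glucose, with 4 lower, 1 higher and 3 that did not pass. Most of that sum was SPARC, a secreted matrix protein, which went from 21705 ± 278 to 12226 ± 406 CPM. VIM (vimentin, 4091 to 2967 CPM), FN1 (fibronectin, 3612 to 2537 CPM) and PDGFRB (a PDGF receptor, 1456 to 766 CPM) were the others lower. The rest of this list, CDH2, CDH11, PDGFRA and THY1, held the 1 that was higher and the 3 that did not pass. The 5 pericyte markers summed to 488 to 532 and 181 to 212 CPM, with 4 lower, nearly all of the sum being NOTCH3 (509.6 to 195.7 CPM). The 8 epithelial markers summed to 362 to 378 and 244 to 308 CPM, with 3 higher and 2 lower. Of the 3 leukocyte markers in the table, summing to 0.947 to 1.67 CPM at low glucose and 2.93 to 5.93 CPM at high glucose, CD14 was higher and PTPRC and LYZ were at or near 0. The 4 endothelial markers summed to 3.65 to 4.17 and 4.07 to 5.42 CPM, with 2 higher and 2 lower. Of 6 skeletal muscle markers only MYH2 was in the table, and it was higher at high glucose (0.0785 and 0.799 CPM). The part of these markers in the changes of the contractile genes was not tested.

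The genes whose log2(CPM + 1) followed TAGLN most closely over the 8 libraries, among genes of at least 5 CPM, were SLC25A11 (Pearson r = 0.994), a mitochondrial carrier, ANKS6 (0.992) and C11orf74 (0.991). All 3 were lower at high glucose, with log2 changes of -0.76, -0.46 and -0.72. With 4 libraries in each of 2 groups that differ, such a correlation mostly restates the group difference, and it is given as a description.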

How the data were processed

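RNA of MDA-MB-157 cells was sequenced on an Illumina HiSeq machine per the labels, from 4 replicates at 5 mM and 4 at 25 mM glucose. The authors deposited 1 table of CPM values scaled with TMM factors from edgeR. The labels name hg38 and the study's methods name hg19, and the counter used for this table and its use of strand are not given in the sources used here. Low values lay on steps of 1 read, but only 72.4% to 73.9% were whole steps (within 0.01 step), so whole reads were not recovered and no count test was run. Of the 10 contractile genes, 5 had whole read estimates in all 8 libraries. Reads per library were estimated as the sum of CPM over the step. Of 21077 lines, 18 pseudoautosomal Y copies were left out.

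Values were tested as log2(CPM + 1) with limma 3.58.1 in R 4.3.3 (lmFit, eBayes with trend, 2-sided, no covariate), with Benjamini-Hochberg adjustment over 21059 genes and a threshold of 0.05. The scripts were tested on simulated data. Fold changes on this scale understate those of low genes. Nothing says that the replicates were separate cultures, so p-values measure only the spread between these libraries. The 10 genes and all lists were chosen with earlier results of these data known.

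Genes were named by rule: all 10, all actin and tropomyosin genes, SRF, MYOCD, MRTFA and MRTFB, up to 4 genes per list with an adjusted p under 0.05, an absolute log2 change of at least 0.5 and the smallest adjusted p, and the 3 genes closest to TAGLN. The cell type markers were taken as whole lists. Of the lists, 1 and 1 gene named by the rule are not reported here, though totals over the lists include them. MYL12A, MYL12B, CNN3, TAGLN2, TAGLN3, the overlapping genes and the ratios were chosen after their values were seen. Gene positions and promoters are from RefSeq on GRCh38.p14. Transcript lengths, exon overlaps and shared words of 31 bases are from GENCODE 44 on GRCh37, with no positions carried over. Alternatives were a pseudocount of 0.1, filters at 1 and 5 CPM, 3 other scalings, a replicate block, array weights, removal of the length trend (a spline with 5 degrees of freedom) and leaving out each library.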

Additional observations from a re-analysis of the deposited data

Results flagged for a closer look

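Within the groups of 4 libraries, single libraries stood far from the other 3 for 5 genes and for depth, with the gap to the nearest library over the group's range above Dixon's 95% critical value. Among the contractile genes, TAGLN in replicate 1 of low glucose was at 31.6 CPM, with the nearest library at 33.6 CPM (gap ratio 0.947). CNN1 in replicate 4 of low glucose was at 0, beside 0.0828 CPM, the value of 1 read (0.975). Among the other genes, MYH10 was low in replicate 1 of both groups, at 285.0 CPM beside 302.0 CPM at low glucose (0.957) and at 167.9 CPM beside 209.0 CPM at high glucose (0.833). PPP1CB was high in replicate 1 of high glucose, at 444.5 CPM beside 411.4 CPM (0.899), and SORBS3 was high in replicate 1 of low glucose, at 35.4 CPM beside 34.3 CPM (0.83). The estimated reads of replicate 4 of low glucose were 12104244, beside 10622968 (0.864). These are 7 of 76 groups examined, of which chance gives about 3.8, or 1 in 20. Of the 7, 5 were replicate 1 libraries.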

How the results depend on the processing

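Over 17 alternatives, the count of contractile genes called was 8 except with the length trend removed, where it was 7 because TPM1 did not pass (log2 change -0.097, adjusted p = 0.057). The log2 changes ranged from -1.11 to -0.96 for MYL9, -0.84 to -0.69 for CALD1, -0.52 to -0.36 for ACTA2, -0.48 to -0.39 for TAGLN, -0.43 to -0.29 for CNN2, -0.37 to -0.24 for TPM2, -0.25 to -0.19 for TPM4 and -0.19 to -0.097 for TPM1. ACTG2 was at -0.49 with a pseudocount of 0.1 and passed under none of 14 alternatives. The replicate block gave 8 contractile genes, 56 of the related genes (63 without it) and 8921 genes over the table (9849 without it), and its adjusted p was 0.105 for ACTB, 0.0524 for ACTG1 and 0.0548 for PPP1R14A, so these calls were lost. Same-numbered libraries correlated at 0.069, -0.028, 0.014 and -0.040 in their deviations, and 2 libraries correlated best with their own number. The length trend of replicate 1 of high glucose enters these deviations, so the values cannot decide whether the libraries were paired. ACTB also lost its call under median-of-ratios scaling (adjusted p = 0.0651), quantile normalization (0.135) and without any 1 library other than replicate 1 of high glucose. ACTC1, which never passed, changed sign when single libraries were left out, from -0.094 to 0.098. Of 451 checks of related named genes, 436 kept direction and call, 12 lost the call and 3 changed sign. Depth limits CNN1 and ACTG2, and the use of strand and of shared reads limits TAGLN, TPM4, CNN2 and the actins.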
